A study of Mus musculus with 6 samples.

Results

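Proteins that enter the secretory pathway are threaded into the endoplasmic reticulum (ER), folded there by chaperones, joined by disulfide bonds and checked, and those that fail are passed back to the cytosol and degraded. The 36 genes described here code for this machinery. They were taken by gene name from a list of ER chaperones, folding enzymes, degradation factors and stress sensors, and each name matched 1 row of the 54532 genes in the table. In neurons and glia, as in other cells, unfolded protein in the ER activates the sensors ATF6, IRE1 and PERK. ATF6 and XBP1, the factor whose mRNA IRE1 splices, then induce chaperone and degradation genes, a programme called the unfolded protein response.

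Total RNA of cerebral cortex was sequenced from mice at 12 months of age, with 3 libraries labelled KO, of the genotype Fam69c KO, and 3 labelled WT. No other allele or agent is given, and the labels do not say which part of Fam69c was deleted or whether each library came from its own mouse, so p-values measure the spread between these libraries. Fam69c encodes a kinase-like protein of the secretory pathway. Its RNA read 1.54, 1.84 and 1.42 FPKM (reads scaled to gene model length and library total) in the KO-labelled libraries, against 2.03, 1.57 and 2.08 FPKM in WT, a log2 fold change of -0.19 (95% interval -0.49 to 0.11). The groups overlapped, so the level of this RNA does not check the labels. Libraries held from 33068481 to 35065884 reads labelled KO and from 30935326 to 32707769 reads in WT. Markers of excitatory neurons, the main cells of cortex, summed to 1758 to 1866 FPKM in the KO-labelled libraries and 1762 to 1988 FPKM in WT. Markers of striatal projection neurons, from a region below the cortex, varied most within groups, from 220 to 423 FPKM labelled KO and from 160 to 476 FPKM in WT, with KO replicate 1 and WT replicate 3 lowest. In bulk tissue, fewer cells of a type and less RNA per cell cannot be told apart.

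A DNA element known from ER stress genes, the kind of gene listed here, recurred in the promoters of some of the 36 genes. The ER stress response element, ERSE, is the pair CCAAT and CCACG with 9 bases between them, bound by NF-Y and ATF6, and ERSE-II is ATTGG and CCACG with 1 base between. Promoters from RefSeq (build GRCm38.p6, from 250 bases before to 50 after each start) were at hand for 31 members. Both strands were searched for exact matches. An ERSE lay in 9 of these 31 members (29.0%), against 37 of 27025 genes with a promoter (0.137%). The 9 were Hspa5, Hsp90b1, Dnajc3, Calr, Canx, Pdia6, Ero1lb (Ero1b in RefSeq), Creld2 and Syvn1, which were 24.3% of the 37. ERSE-II lay in Herpud1 and Dnajb11, 6.45% of the members, against 0.0444% of genes. The element TGACGTGG, called UPRE, which XBP1 binds, was in 1 member, Txndc5 (3.23%), against 0.714% of genes. All 3 elements hold CCACG or its reverse complement CGTGG, and each of the 12 members with a match held 1 kind. Other genes of the pathway, described further on, were matched to promoters by symbol alone, while members were also matched by synonym. Of the 96 matched, 1 held an ERSE, Derl3. A match is a run of letters, not a shown binding site. Elements with a changed letter were not counted, so a gene without a match may still hold such an element. The members were picked for roles that include ER stress, so the high share of this element is not an independent result.

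To show the form of the elements where they were found, those of 5 abundant members, of Dnajc3 and of Herpud1 are given. Dnajc3 had a log2 fold change near 0, and Herpud1 carries ERSE-II. Each element is written 5′ to 3′ on the gene's strand with 20 bases on either side, its fixed letters in capitals. Where the element runs on the other strand it reads CGTGG before ATTGG, as in Calr and the nearer element of Hsp90b1.
Hspa5, chr2:34772005-34772063, plus strand: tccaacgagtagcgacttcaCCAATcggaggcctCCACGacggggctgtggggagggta
Hsp90b1, farther element, chr10:86705618-86705676, minus strand: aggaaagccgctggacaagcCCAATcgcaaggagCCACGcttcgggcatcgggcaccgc
Hsp90b1, nearer element, chr10:86705513-86705571, minus strand: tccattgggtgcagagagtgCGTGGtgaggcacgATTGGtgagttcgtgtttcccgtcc
Calr, chr8:84847055-84847113, minus strand: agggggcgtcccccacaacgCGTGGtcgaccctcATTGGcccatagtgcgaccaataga
Canx, chr11:50325780-50325838, minus strand: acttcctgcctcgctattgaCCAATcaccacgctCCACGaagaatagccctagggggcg
Pdia6, chr12:17266471-17266529, plus strand: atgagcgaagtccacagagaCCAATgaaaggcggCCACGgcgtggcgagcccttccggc
Dnajc3, chr14:118937807-118937865, plus strand: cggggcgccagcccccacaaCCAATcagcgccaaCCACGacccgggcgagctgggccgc
Herpud1, chr8:94386357-94386407, plus strand: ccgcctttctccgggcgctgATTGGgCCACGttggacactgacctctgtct

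Hsp90b1 held 2 elements on opposite strands, starting at -212 and -107 from the start, and was the single member with more than 1 exact match. The others of the ERSE type started between -201 in Ero1lb and -44 in Syvn1. The ERSE-II of Herpud1 started at -52 and that of Dnajb11 at 7, after the start.

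**Figure D1:**
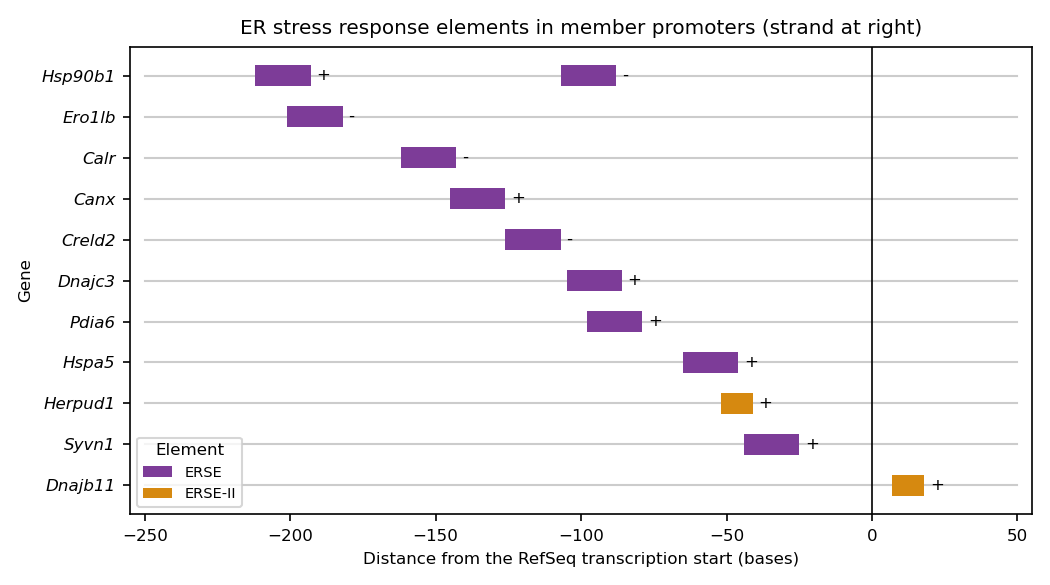
Position of each ERSE and ERSE-II in the promoters of the 11 members that hold one, in bases from the RefSeq transcription start, with the strand of the element beside it. All lie upstream of the start except that of Dnajb11, and Hsp90b1 holds 2.

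Levels of the 36 genes spanned from 102 FPKM for Calr to 1.42 FPKM for Pdia5 as means of 6 libraries. FPKM is per gene model length, so levels of different genes compare only as far as that length matches the transcripts made. For Derl2 the length was 8049 bases, equal to all its exon bases in GENCODE M21, and for Derl1 3328 bases. A gene with long exons that are seldom used would read too low. All 36 passed the filter of a mean of at least 0.5 FPKM. The least covered was Pdia5, with 107 to 170 reads per library. Together they summed to 736, 736 and 769 FPKM in the KO-labelled libraries, against 733, 729 and 676 FPKM in WT. Replicate 3 held the highest sum among those labelled KO, and WT replicate 3 the lowest of all. Calr alone gave 14.3, 14.3 and 14.7% of the sum labelled KO and 14.2, 13.8 and 12.6% in WT. The 6 most abundant, Calr, Canx, Os9, Pdia3, Hsp90b1 and Hspa5, gave from 50.2 to 51.4% labelled KO and from 47.9 to 50.1% in WT.

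In the order of levels, Calr stood above Canx, and Canx above Os9, in every library. From Os9 through Pdia3 and Hsp90b1 to Hspa5 each gene overlapped its neighbour in range over the 6 libraries, though Os9, at 52.0 FPKM or more, lay above Hspa5, at 50.4 FPKM or less. Then P4hb stood alone at 32.4 FPKM. The ranges of Xbp1, Sel1l, Herpud1 and Pdia6 overlapped, at 22.9 to 24.1 FPKM. From Dnajb9 (16.2 FPKM) to Txndc5 (11.6 FPKM), each of 10 genes overlapped its neighbour. Per length of these gene models, paired relatives stood apart: Derl1 at 19.7 FPKM over Derl2 at 3.03 FPKM, and Ero1l at 7.73 FPKM over Ero1lb at 3.49 FPKM. The mannosidase-like genes ran Edem3 (8.28 FPKM), Edem2 (5.61 FPKM) and Edem1 (4.30 FPKM), with ranges that did not overlap. Of the sensors, Atf6 stood at 12.9 FPKM and Ern1, which encodes IRE1, at 1.82 FPKM.

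**Figure D2:**
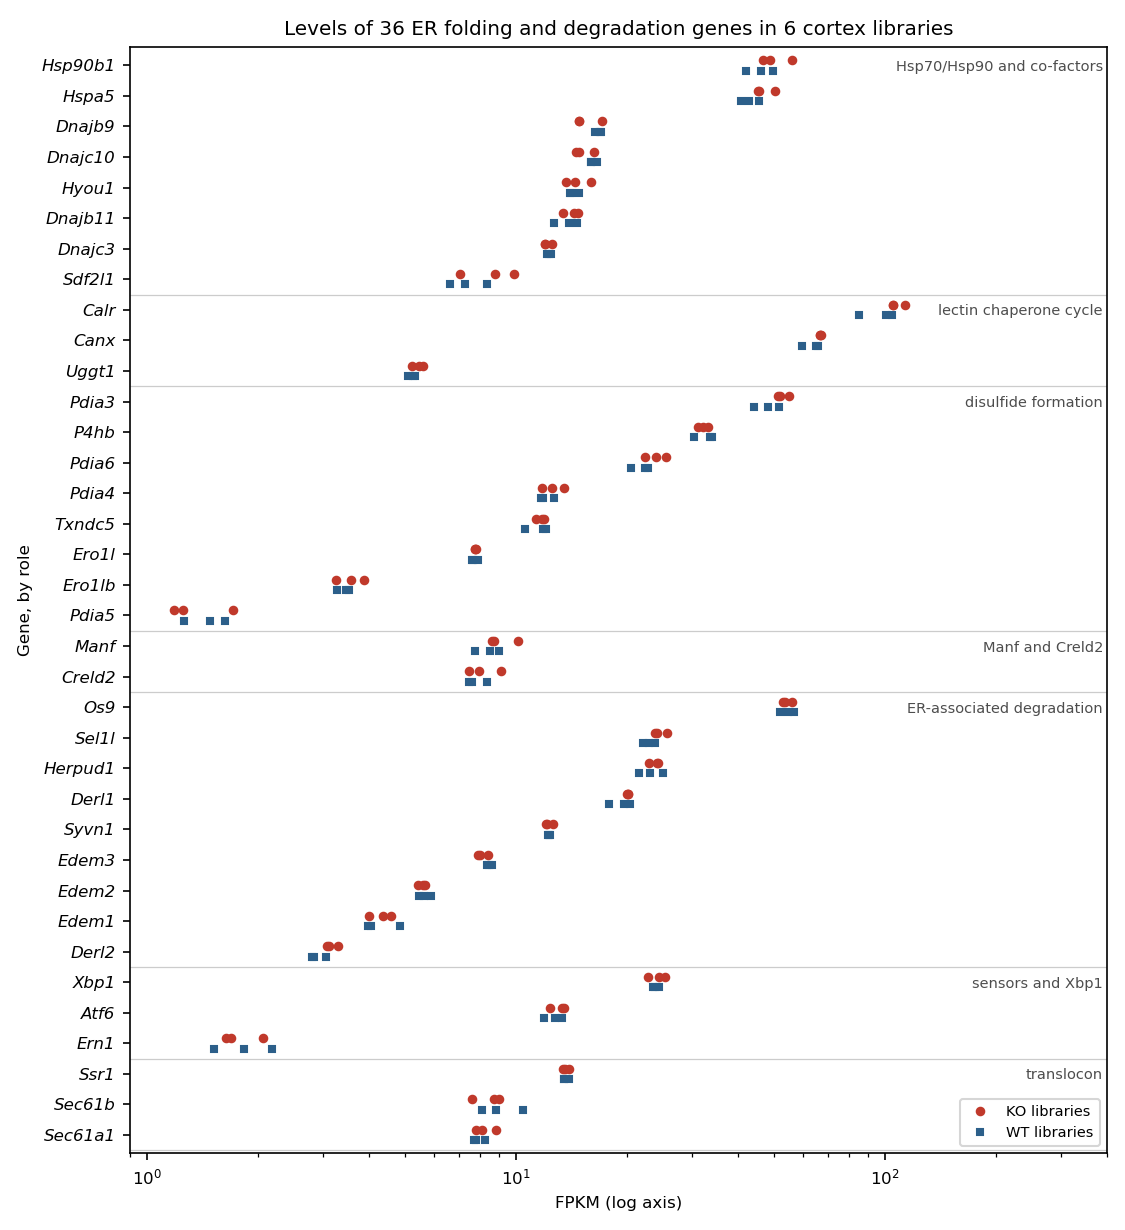
FPKM of each member in every library on a log axis, grouped by role, with KO-labelled libraries as circles above WT libraries as squares. Calr is highest and Pdia5 lowest, and for most genes the symbols of the groups overlap.

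The comparison of genotypes asked whether these genes differ in cortex labelled as lacking Fam69c. No member passed the test (limma on log2(FPKM + 0.5), Benjamini-Hochberg adjusted over 15694 genes, threshold 0.05): 0 of 36 members were called, where 0% of all genes tested were. At an unadjusted p under 0.05 there were 0 of 36 members, against 3.82% of all genes, and with voom, also of limma, on the reads behind the values there were 0 members in both counts. Adjusted p was 0.999 for each member (limma, n = 3 per group). The log2 fold change was above 0 for 25 of 36 members, or 69.4%, against 48% of all genes. Their median was 0.041 against -0.0042 for all genes, and 26 of 36 lay within 0.1 of 0. The 95% intervals reached a median of 0.15 log2 units to either side, which is more than the members' median of 0.041. For 29 of 36 members the whole interval lay between -0.3 and 0.3. The widest bounds over the 36 intervals were -0.39, for Pdia5, and 0.50, for Sdf2l1.

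All 3 KO-labelled libraries lay above all 3 WT libraries for 4 of 36 members, Calr, Canx, Sel1l and Derl2, against 4.17% of all genes tested. For 0 of 36 members they lay below all WT libraries, against 4.7% of all genes. The margins were small: 104.9 FPKM in the lowest KO-labelled library against 104.4 FPKM in the highest WT library for Calr, and 23.82 against 23.76 FPKM for Sel1l.

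**Figure D3:**
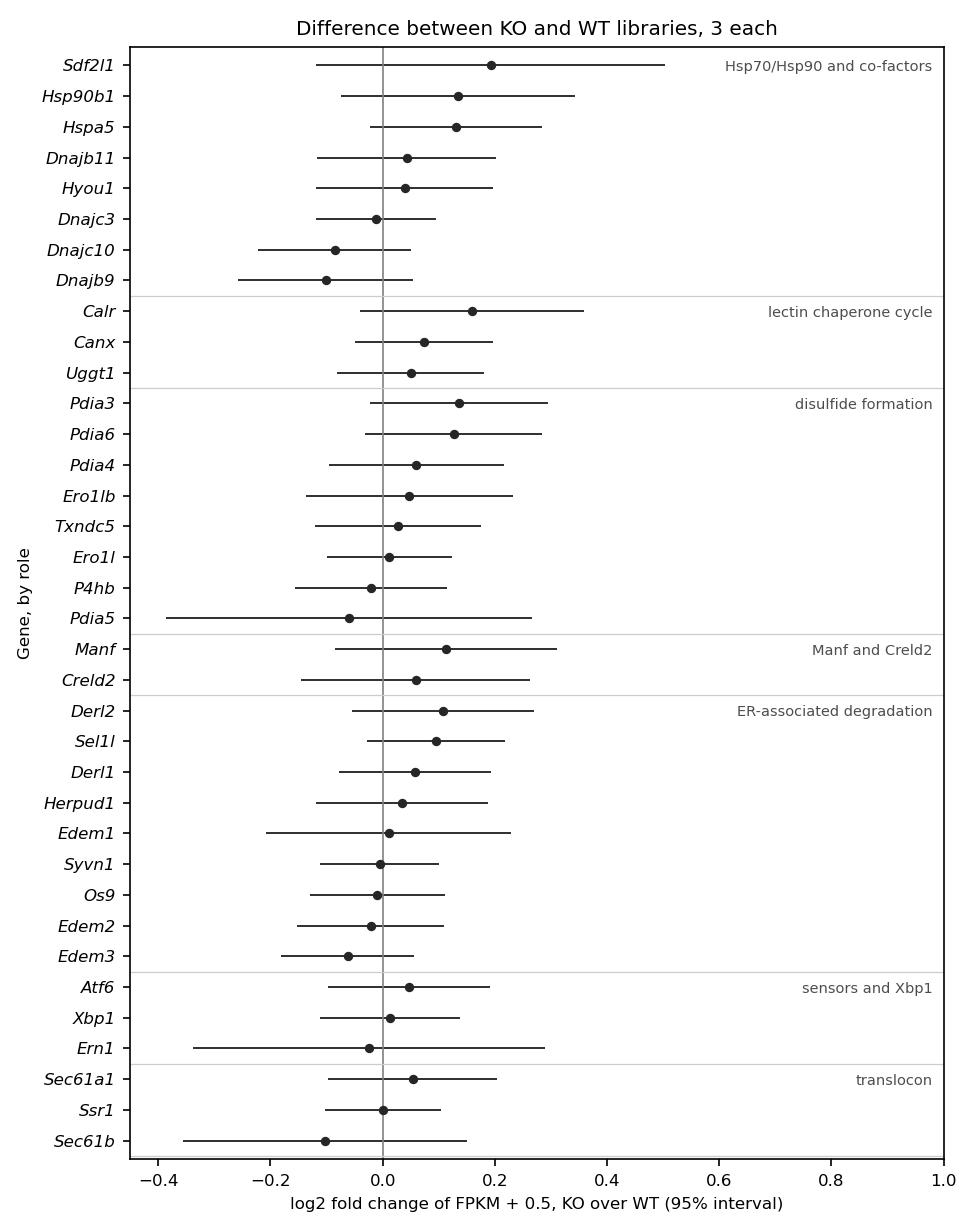
Log2 fold change of FPKM + 0.5, KO-labelled over WT (3 libraries each), with its 95% interval for each member by role. Every interval includes 0, and 25 of 36 estimates lie to its right.

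The lumenal Hsp70 and Hsp90 chaperones and their co-factors had 5 of 8 members above 0, a median of 0.041. Hspa5 encodes BiP, the Hsp70 of the ER that binds unfolded chains and holds the stress sensors inactive (mm10 chromosome 2, 34771970 to 34777547). It read 45.4, 45.7 and 50.4 FPKM labelled KO, against 45.7, 42.8 and 40.7 FPKM in WT. The KO-labelled libraries reached higher, but WT replicate 1 lay among them, and the log2 fold change was 0.13 (SE 0.065), or 0.082 without KO-labelled replicate 3. Hsp90b1 encodes GRP94, the Hsp90 of the ER (chromosome 10, 86690209 to 86705509), and read 46.8, 48.8 and 56.1 FPKM labelled KO, against 46.3, 49.6 and 42.0 FPKM in WT. Replicate 3 was the extreme of each group, highest labelled KO and lowest in WT, and the log2 fold change was 0.13 (interval -0.075 to 0.34), or 0.058 without KO-labelled replicate 3 and 0.072 without WT replicate 3. In GENCODE M21, 10.3% of the Hsp90b1 exon bases are shared with a pseudogene on the other strand, 1810014B01Rik, and whether counting used strand is not given in the sources used here.

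Co-factors of BiP did not share 1 direction. Sdf2l1, whose product works with BiP and J proteins, had the highest log2 fold change of all members, 0.19, with 9.90, 7.06 and 8.77 FPKM labelled KO, against 8.32, 7.26 and 6.64 FPKM in WT, and was thinly covered, with 244 to 372 reads. That value ran from 0.088 without KO-labelled replicate 1 to 0.32 without KO-labelled replicate 2, and was 0.046 with sample weights. Without KO-labelled replicate 1 it was not the highest. Dnajb9, the J protein ERdj4 that returns IRE1 to BiP, read 17.1, 14.9 and 14.8 FPKM labelled KO, against 17.0, 16.4 and 16.8 FPKM in WT. Replicates 2 and 3 labelled KO lay below all WT libraries and replicate 1 above them, with a log2 fold change of -0.10. Dnajc10, a J protein with reductase activity, stood at -0.086, and Dnajc3, known as p58IPK, at -0.012, though it holds an ERSE. Hyou1, an Hsp110-type exchange factor for BiP, gave 0.039, and Dnajb11, the J protein ERdj3, 0.043.

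The lectin chaperone cycle, in which sugar-marked glycoproteins are bound by calreticulin and calnexin, had 3 of 3 members above 0. Calr, encoding calreticulin (chromosome 8, 84841850 to 84846934), read 104.9, 105.2 and 113.1 FPKM labelled KO, against 104.4, 100.6 and 85.2 FPKM in WT. The groups did not overlap, but WT replicate 3 stood far below the other 2 WT libraries. Its log2 fold change was 0.16 (SE 0.084, interval -0.040 to 0.36), and without WT replicate 3 it was 0.071. Canx, encoding the membrane-bound calnexin (chromosome 11, 50293961 to 50325673), read 66.8, 66.5 and 67.2 FPKM labelled KO, against 65.2, 65.8 and 59.6 FPKM in WT. The KO-labelled libraries were nearly equal (66.8 ± 0.318 FPKM, SD, n = 3), and WT replicate 3 again stood low, with a log2 fold change of 0.074, or 0.029 without that library. Uggt1, which puts the sugar mark back on misfolded glycoproteins, gave 0.050 at 5.43 ± 0.190 FPKM labelled KO and 5.22 ± 0.113 FPKM in WT (SD, n = 3 each).

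Of 8 disulfide genes, 6 were above 0, with a median of 0.037. Pdia3, the isomerase ERp57 that works with calnexin and calreticulin (chromosome 2, 121413775 to 121438687), had the smallest p of the members, 0.0816 unadjusted (limma). It read 51.3, 51.8 and 55.1 FPKM labelled KO, against 48.2, 51.6 and 44.2 FPKM in WT, a log2 fold change of 0.14 (interval -0.022 to 0.29), or 0.078 without WT replicate 3. WT replicate 2 lay between KO-labelled replicates 1 and 2, so the groups just overlapped. Pdia6, another isomerase (chromosome 12, 17266545 to 17284770), read 22.4, 24.0 and 25.4 FPKM labelled KO, against 22.4, 22.8 and 20.4 FPKM in WT, with a log2 fold change of 0.13, or 0.080 without WT replicate 3 and 0.084 without KO-labelled replicate 3. P4hb, the founding isomerase PDI and a subunit of prolyl hydroxylase, read 33.2, 31.2 and 32.0 FPKM labelled KO, against 34.0, 33.5 and 30.4 FPKM in WT. Here the KO-labelled libraries lay within the WT range, with a log2 fold change of -0.020, and the sign turned to 0.0010 with TPM scaling. The oxidases that recharge these isomerases overlapped between groups: Ero1l ran from 7.75 to 7.79 FPKM labelled KO and from 7.58 to 7.87 FPKM in WT, and Ero1lb stood at 3.56 ± 0.312 FPKM labelled KO and 3.42 ± 0.128 FPKM in WT (SD, n = 3 each). Pdia4 gave 0.060, Txndc5 0.027 and Pdia5 -0.061, the last 2 with signs that turned in other settings.

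Manf and Creld2, small proteins that ER stress induces and that can be secreted, were both above 0. Manf read 8.72, 8.59 and 10.1 FPKM labelled KO, against 9.001, 8.48 and 7.74 FPKM in WT, with a log2 fold change of 0.11, or 0.042 without KO-labelled replicate 3 and 0.058 without WT replicate 3. Replicate 3 was again highest labelled KO and lowest in WT. Creld2 gave 0.059 with all libraries and -0.019 without KO-labelled replicate 3.

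**Figure D4:**
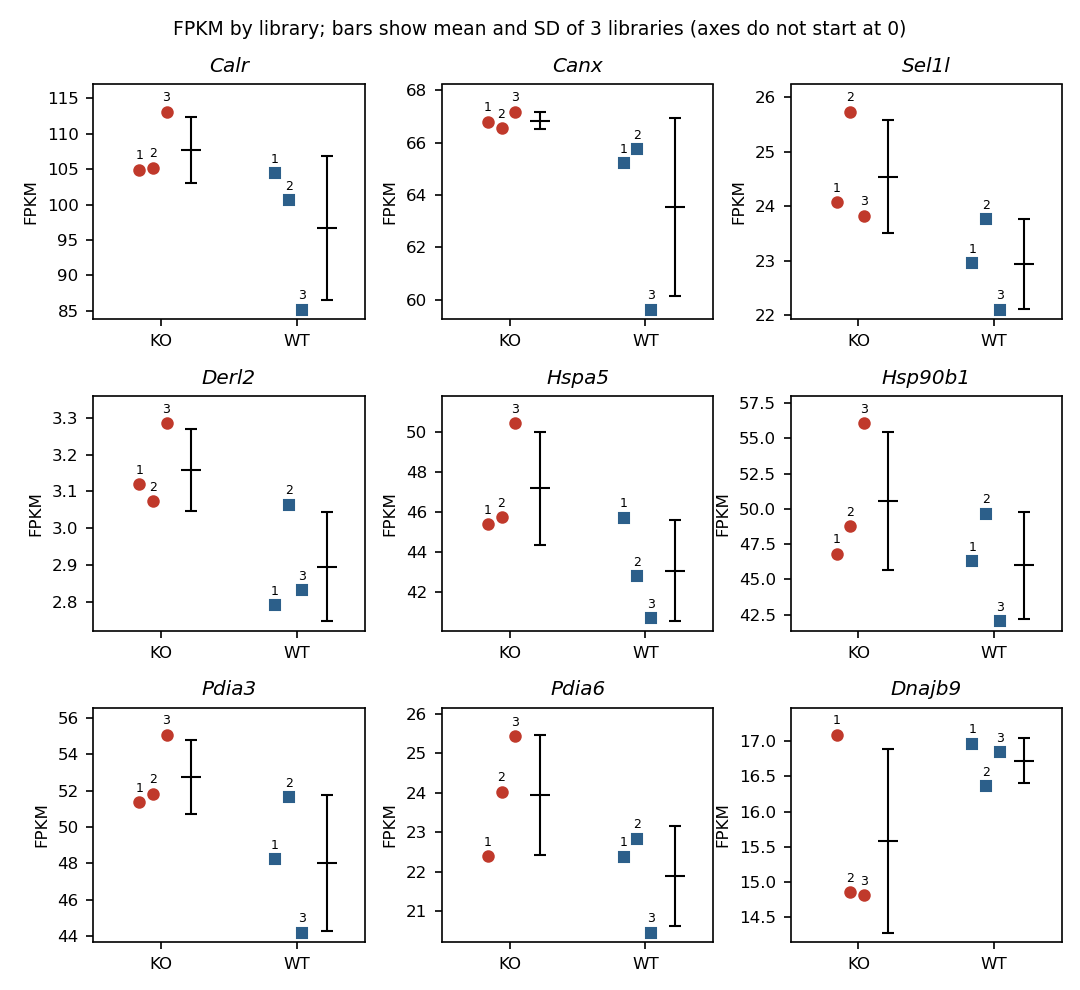
FPKM of 9 members in each library, numbered by replicate, with KO-labelled libraries left of WT and bars for mean and SD (n = 3 each). Calr, Canx, Sel1l and Derl2 do not overlap between groups, and WT replicate 3 is the lowest point in 7 of the 9 panels.

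Genes of ER-associated degradation had 5 of 9 members above 0 and a median of 0.011. Sel1l, the scaffold of the SEL1L-HRD1 ubiquitin ligase (chromosome 12, 91806043 to 91849157), read 24.1, 25.7 and 23.8 FPKM labelled KO, against 23.0, 23.8 and 22.1 FPKM in WT, a log2 fold change of 0.095 (SE 0.052), or 0.061 without KO-labelled replicate 2. The Sel1l interval, from -0.028 to 0.22, included 0. Syvn1, which encodes the ligase HRD1 itself, read 12.3 ± 0.307 FPKM labelled KO and 12.3 ± 0.0560 FPKM in WT (SD, n = 3 each). Its interval, from -0.11 to 0.10, overlapped that of Sel1l. Derl2, a derlin of the membrane channel (chromosome 11, 71007164 to 71019841), read 3.12, 3.07 and 3.28 FPKM labelled KO, against 2.79, 3.06 and 2.83 FPKM in WT, a log2 fold change of 0.11. Its exons share 2.87% of their bases with Mis12 on the other strand, and transcripts of 4 genes elsewhere resemble it over 100 to 104 bases. Its relative Derl1 gave 0.058. Os9, a lectin that hands misfolded glycoproteins to the ligase, read 53.7, 55.8 and 52.9 FPKM labelled KO, against 56.8, 54.8 and 52.0 FPKM in WT. The KO-labelled values lay inside the WT range, at -0.010, and the sign turned to 0.012 with TPM scaling. Herpud1, a stress-induced adaptor of the ligase, read 24.2, 22.9 and 24.3 FPKM labelled KO, against 25.1, 23.1 and 21.6 FPKM in WT. Its log2 fold change of 0.035 turned to -0.021 with sample weights and -0.017 without WT replicate 3. Edem1, Edem2 and Edem3, which trim mannose from glycoproteins bound for degradation, gave 0.011, -0.021 and -0.063, the first 2 with signs that turned when single libraries were left out.

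The sensors and the transcription factor they feed had log2 fold changes within 0.1 of 0. Atf6, which encodes the membrane-bound factor cut free under stress, read 13.5, 13.3 and 12.4 FPKM labelled KO, against 11.9, 13.3 and 12.7 FPKM in WT, a log2 fold change of 0.047 with overlapping groups, or 0.0058 without WT replicate 1. Xbp1 read 24.4, 22.8 and 25.4 FPKM labelled KO, against 23.5, 23.9 and 24.5 FPKM in WT, with an interval from -0.11 to 0.14 and a sign that turned to -0.0051 with sample weights. The table has 1 value per gene and does not tell the spliced from the unspliced Xbp1 mRNA. Ern1 read 1.64, 1.68 and 2.07 FPKM labelled KO, against 1.83, 1.51 and 2.18 FPKM in WT. Its log2 fold change was -0.025, with a wide interval from -0.34 to 0.29, and turned to 0.077 without WT replicate 3. In both groups replicate 3 was the highest.

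Of the translocon genes, which form the channel for entering chains, Sec61a1 read 7.77, 8.08 and 8.84 FPKM labelled KO, against 7.70, 7.79 and 8.22 FPKM in WT, a log2 fold change of 0.054, or 0.0042 without KO-labelled replicate 3. In GENCODE M21 8.16% of its exon bases lie opposite the antisense gene Gm44170, listed at 0 in the table. Ssr1, a subunit of the translocon-associated complex, was among the steadiest members, at 13.6 ± 0.222 FPKM labelled KO and 13.6 ± 0.230 FPKM in WT (SD, n = 3 each), with a log2 fold change of 0.0015 whose sign turned to -0.011 without KO-labelled replicate 2. Sec61b gave the lowest log2 fold change of all members, -0.10, with 8.43 ± 0.748 FPKM labelled KO and 9.12 ± 1.23 FPKM in WT. WT replicate 1, at 10.5 FPKM, was its highest value, and without it the log2 fold change was -0.0042 and not the lowest. Transcripts of 3 genes elsewhere match Sec61b over 163 to 165 bases, so its reads may be shared.

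Seen by library, the median member lay furthest from its own mean in replicate 3 of each group. KO-labelled replicate 3 held the highest value for 18 of 36 members, and WT replicate 3 the lowest for 16 of 36. The median deviation of the members from their own means was 0.0072, 0.017 and 0.072 log2 units in KO-labelled replicates 1, 2 and 3, against -0.0012, 0.0032 and -0.034 in WT replicates 1, 2 and 3. For all genes tested the same medians lay between -0.0046 and 0.0043. Without KO-labelled replicate 3 the members' median log2 fold change was 0.0083, with 21 of 36 above 0. Without WT replicate 3 it was 0.032, with 22 of 36 above 0. Without WT replicate 1 the median was lower still, 0.027, with 26 of 36 above 0. WT replicate 3 also held the lowest sum of striatal markers, 160 FPKM, against 461 and 476 FPKM in the other WT libraries. It also held the highest sum of 12 immediate early genes, which neuronal activity switches on, 666 FPKM against 364 and 408 FPKM. KO-labelled replicate 3, at 367 FPKM for striatal markers and 463 FPKM for immediate early genes, lay within the WT range for both. Of the 10 striatal markers 7 had a log2 fold change above 0, and of the 12 immediate early genes 0 did. In both lists 0 passed (limma, adjusted p). Without both KO-labelled replicate 1 and WT replicate 3, the 2 lowest in striatal markers, 25 of 36 members were above 0 and the median was 0.028. The part of tissue composition in these values was not tested.

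Members were also set side by side by promoter. For the 11 that hold an ERSE or ERSE-II the median deviation was 0.13 log2 units in KO-labelled replicate 3 and -0.13 in WT replicate 3. For the 20 with a promoter and no exact match of either element it was 0.0079 and -0.0050 in the same libraries, with members far from 0 on both sides. For the 5 with no promoter in the table it was 0.13 and -0.012. Of the 11, 9 had a log2 fold change above 0, with a median of 0.059, of the 20, 11 did, with a median of 0.0062, and of the 5, 5 did, with a median of 0.054. Members with an element were also the more abundant, at a median of 22.9 FPKM against 10.2 FPKM. The difference between the sets was not tested. Within the 11, Dnajc3 and Syvn1 were at -0.012 and -0.0052, and among the 20 Pdia3 and Sdf2l1 were at 0.14 and 0.19.

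**Figure D5:**
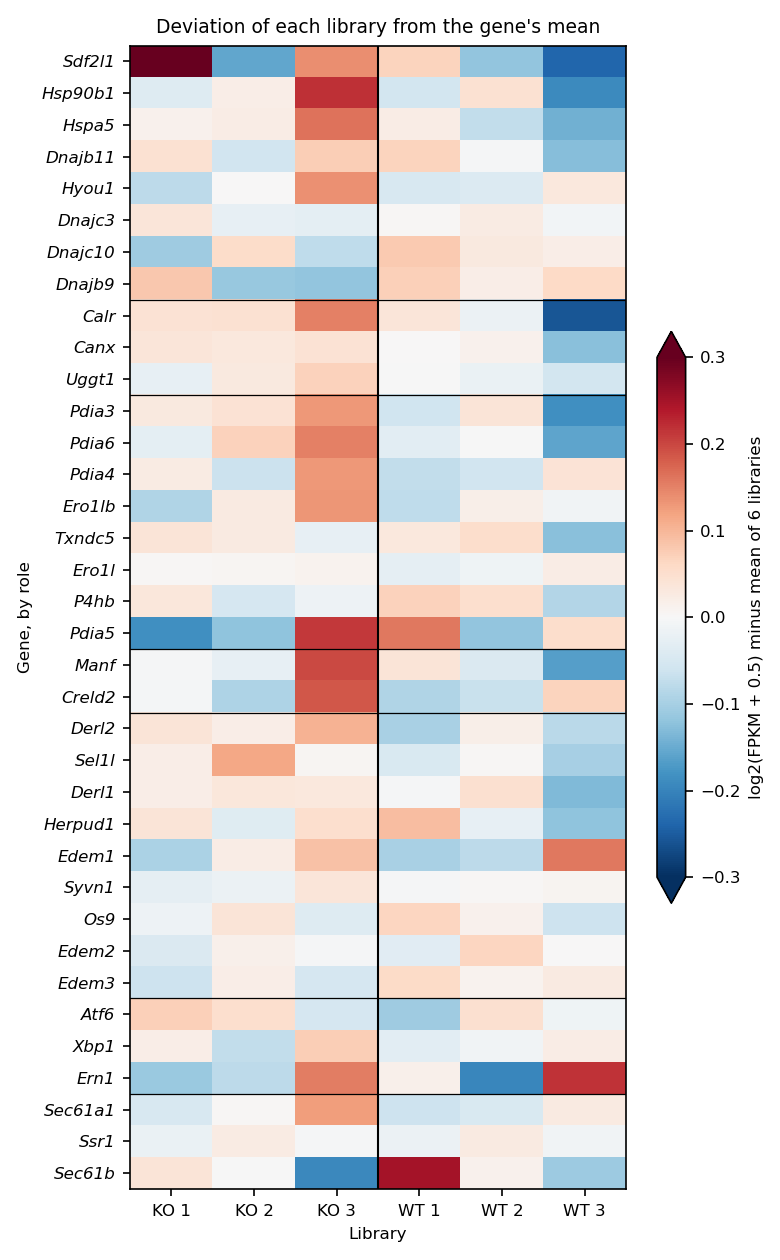
Deviation of log2(FPKM + 0.5) in each library from the gene's mean over 6 libraries, by role, with KO-labelled libraries left of WT. Red cells gather in KO replicate 3 and blue cells in WT replicate 3, mainly for a part of the chaperones and isomerases. Others run otherwise, among them Dnajb9, Dnajc10, Pdia4, Pdia5, Edem1, Ern1 and Sec61b.

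Spread within groups was modest for most members. The median coefficient of variation was 4.77% labelled KO and 5.45% in WT, against a median over all genes tested of 7.85% labelled KO and 7.95% in WT. Levels differ between the sets, and low genes vary more through counting. Pdia5 varied most labelled KO (20.8%) and Ern1 most in WT (18.1%). The steadiest were Ero1l labelled KO (0.256%) and Syvn1 in WT (0.456%).

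Of other genes of the pathway, 123 were in the table and 117 passed the filter. Above 0 lay 51 of 117 (43.6%), against 48% of all genes tested. Their median was -0.021, against -0.0042 for all genes. By adjusted p, 0 passed (limma, adjusted over all genes). At an unadjusted p under 0.05 there were 5 of 117, against 3.82% of all genes: Derl3, Tram1, Ppp1r15a, Atf4 and Creb3l2. All KO-labelled libraries lay above all WT libraries for 7 of 117 genes, against 4.17% of all genes tested. They lay below all WT libraries for 7 of 117, against 4.7%. The 5 genes named were picked by p, so their lack of overlap between groups is not further support. Above 0 were 8 of 14 other disulfide genes, 3 of 7 prolyl isomerases, 9 of 17 genes of glycan transfer and trimming, 8 of 22 of translocation, 9 of 24 of degradation, 6 of 17 of stress signalling, 2 of 5 ER-phagy receptors and 6 of 11 other lumenal chaperones. Among degradation genes, Derl3, the third derlin and the holder of an ERSE, read 0.577, 1.28 and 1.12 FPKM labelled KO, against 0.530, 0.540 and 0.363 FPKM in WT. All KO-labelled libraries lay above WT, from 39 to 85 reads labelled KO against 24 to 33 in WT, and the log2 fold change was 0.58 (interval 0.085 to 1.08, limma adjusted p = 0.999). Tram1, a translocon helper, gave 0.20, with 8.45, 8.15 and 7.22 FPKM labelled KO, against 6.80, 6.58 and 7.10 FPKM in WT and no overlap.

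The other 3 belong to stress signalling. Ppp1r15a, which encodes the GADD34 phosphatase subunit that restores translation, gave -0.25, with 4.33, 3.67 and 3.99 FPKM labelled KO, against 4.86, 5.08 and 4.54 FPKM in WT. Atf4, the factor translated when PERK acts, gave -0.16, with 47.7, 42.0 and 44.0 FPKM labelled KO, against 51.2, 48.1 and 50.4 FPKM in WT. Both were lower in every KO-labelled library than in any WT library. Creb3l2, a membrane-bound relative of ATF6 named after its values were seen, gave 0.16 with every KO-labelled library above WT. The smallest p among disulfide relatives belonged to Prdx4 (-0.13) and Tmx3 (0.075), among prolyl isomerases to Fkbp14 (0.17) and Ppib (0.10), and among glycan transfer and trimming genes to Krtcap2 (-0.14) and Stt3b (0.085). Srp14, of the signal recognition particle, gave -0.18 and Nploc4, a cofactor of the extraction ATPase, -0.12. The ER-phagy receptors Tex264 and Calcoco1 gave -0.11 and -0.081, and the lumenal Creld1 and Clgn 0.060 and 0.059. Of these 17 genes 0 passed, each at an adjusted p of 0.999 (limma, n = 3 per group).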

How the data were processed

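Total RNA of 6 cortex libraries was sequenced. Per the labels' protocols, Trizol and an Illumina TruSeq RNA kit were used. Bowtie (version not stated) and mm10 stand in the submitters' processing notes. Which program counted reads, whether by strand, and on which annotation is not given in the sources used here. The authors deposited FPKM values per gene, and replicates were not pooled. Reads were recovered from the steps of FPKM times length, since 100% of values in each library came out whole within 0.001.

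From the deposited FPKM, log2(FPKM + 0.5) was compared with limma 3.58.1 in R 4.3.3 (KO over WT, variance trend, two-sided, Benjamini-Hochberg adjustment, no block, genes averaging 0.5 FPKM or more). The pseudocount understates changes of low genes. The test was also run on simulated data. The planted changes there were larger than any member's estimate here, so that run does not cover differences of this size. Values with ± are mean and SD. With 3 libraries a group, exact permutation p-values start at 0.1, so none were computed. The members and lists were chosen with earlier results of these data known. Members described library by library are the 6 with the smallest p, the 6 highest, and the first of each role. Dnajb9, Sdf2l1, Xbp1, Ern1 and the genes of the closing section were added after their values were seen, and for other pathway lists the 2 genes with the smallest p are named. All 36 members have the same start and end as in GENCODE M21, from which exon overlaps and, with BLAST 2.17.0 at 95% identity over at least 100 bases, similar transcripts were found. The closest pair of libraries differed by 3.24 times the sampling noise over 14333 genes, so none were merged. Plots were drawn with matplotlib 3.10.9.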

Additional observations from a re-analysis of the deposited data

How the results depend on the processing

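Over 17 other settings and 1 more chosen after seeing the data, the count of members past an adjusted p of 0.05 was 0 each time (limma), and 20 of 36 members kept their sign, 16 above 0 and 4 below. The 16 other pathway genes named by p kept theirs, though Derl3 has no value with a minimum mean of 1 FPKM. Among all genes 1 passed with protein-coding models only (Rps27rt) and 1 without both KO replicate 1 and WT replicate 3 (Gm47283), the alternative chosen later. Members above 0 numbered from 21 to 28 when single libraries were left out, and their median log2 fold change ran from 0.0083 to 0.048. With TPM scaling the median was 0.063, against 0.020 for all genes. At an unadjusted p under 0.05 there were 2 members with TPM scaling (Calr and Pdia3) and 0 to 2 with single libraries left out.

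Signs turned for members near 0. With TPM scaling the log2 fold change was 0.0094 for Dnajc3, 0.0010 for P4hb, 0.016 for Syvn1 and 0.012 for Os9. With sample weights it was -0.021 for Dnajb11, -0.0037 for Txndc5, -0.021 for Herpud1, 0.013 for Ern1 and -0.0051 for Xbp1. Without both KO replicate 1 and WT replicate 3 it kept its sign but lay outside the range given next for Hyou1 and Ero1lb (0.11 each), P4hb (-0.092) and Edem1 (0.14), and was -0.023 for Dnajb11, 0.027 for Pdia5, -0.042 for Txndc5, -0.028 for Herpud1, 0.0098 for Syvn1 and 0.13 for Ern1. With single libraries left out it ran from -0.020 to 0.088 for Hyou1, -0.011 to 0.087 for Dnajb11, -0.070 to 0.0094 for P4hb, -0.18 to 0.016 for Pdia5, -0.029 to 0.061 for Txndc5, -0.0076 to 0.10 for Ero1lb, -0.019 to 0.12 for Creld2, -0.017 to 0.090 for Herpud1, -0.035 to 0.093 for Edem1, -0.043 to 0.0055 for Edem2, -0.025 to 0.0069 for Syvn1, -0.043 to 0.019 for Os9, -0.13 to 0.077 for Ern1, -0.020 to 0.054 for Xbp1 and -0.011 to 0.015 for Ssr1. The cause was not tested.

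With the replicate number as a block, 0 genes and 0 members passed, 25 members were above 0 and the median stayed at 0.041. Same-numbered libraries correlated in their deviations across genes at 0.082, 0.013 and 0.21 for replicates 1, 2 and 3. Differently numbered libraries ran from -0.16 to 0.11. Not every library correlated best with its own number, and the main test used no pairing. Whether same-numbered libraries, such as replicates 3, were handled together is not given in the labels and was not tested. Depth limits thinly covered genes such as Pdia5, Sdf2l1, Derl3 and Fkbp14, and intervals as wide as those given cannot show differences of a few percent.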

Other observations

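Outside the members 28 genes held an ERSE in their RefSeq promoter, and 8 of these were found by symbol among the genes tested, Derl3 and 7 others. Synonyms were not searched for these genes, so the rest may be named otherwise or lie below the filter. Alg12, a mannosyltransferase of the ER, had a log2 fold change of -0.072. Spats2l gave -0.13 and Gm6566 -0.23. Adcy3, an adenylate cyclase, gave 0.10, the RNA-binding protein gene Hnrnpa3 0.046, Pan2 0.096 and Zfp57 0.13. Of all 8, Derl3 included, 5 were above 0, with a median of 0.071, and 1, Derl3, had an unadjusted p under 0.05.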
